A study of Mus musculus with 8 samples.

Results

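The colony-stimulating factors (CSFs) and their receptors were followed in LPS-treated macrophages grown from bone marrow (BMDM), with and without IL-10 and with and without miR-155. The 8 genes, of 18183 genes on the array with a probe set of their own, were the ligands *Csf1* (M-CSF), *Csf2* (GM-CSF) and *Csf3* (G-CSF) and the receptor genes *Csf1r*, *Csf2ra*, *Csf2rb*, *Csf2rb2* and *Csf3r*. They were taken by name and not for how they moved. Between them they had 15 probe sets annotated to 1 of them only, and each gene was read by its brightest probe set over the 8 arrays, with the others as a check. The 4 groups, of 2 arrays each, were *miR-155*-/-(LPS + IL-10), *miR-155*-/-(LPS), WT(LPS + IL-10) and WT(LPS). Marrow came from the femurs of 2 knockout and 2 wild-type C57Bl/6 mice and was frozen before use, and the thawed cells became macrophages over 7 days in medium with 15% L929 supernatant. LPS was given to every group at 100 ng/ml for 24 h, and IL-10, at 20 ng/ml, went on 5 min before it. No array came from unstimulated cells. The L929 supernatant is a source of M-CSF, so that all groups shared the ligand of *Csf1r* as a supplement. The knockout is of the whole animal and covers every cell of the culture. The 2 arrays of a donor are paired, and p-values rest on 2 mice a genotype. By their labels the *miR-155*-/- mice were male and the WT mice female, so that genotype and sex cannot be told apart. The age of these animals was not given in the labels.

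Each CSF drives the survival, growth and maturation of myeloid cells. M-CSF binds a receptor tyrosine kinase, encoded by *Csf1r*, that defines the macrophage lineage. GM-CSF binds an alpha chain of its own, encoded by *Csf2ra*, which pairs with a beta chain from *Csf2rb* that the IL-3 and IL-5 receptors also use, while mice carry a further beta chain, from *Csf2rb2*, that serves IL-3. G-CSF binds a receptor encoded by *Csf3r* that is best known from neutrophils. The GM-CSF and G-CSF receptors have no kinase of their own and signal through JAK kinases and STAT factors. Activated macrophages make G-CSF when they sense LPS.

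The small RNA that the knockout mice lack is shown because every genotype comparison turns on it. It lies on chr16:84714143-84714165, plus strand, in the RefSeq annotation of GRCm38.p6, and the capitals mark its seed, bases 2 to 8.
mmu-miR-155-5p: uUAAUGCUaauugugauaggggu
The 250 bases before the start that the sequence table gives for *Csf3r* are shown because it was the receptor gene that moved most. That start is an internal one, since the RefSeq span of the gene (chr4:126023441-126044975) begins further upstream and holds the whole window. The bases lie on chr4:126024409-126024658, plus strand (RefSeq, GRCm38.p6), and the capitals mark matches to motifs searched on both strands.
Csf3r: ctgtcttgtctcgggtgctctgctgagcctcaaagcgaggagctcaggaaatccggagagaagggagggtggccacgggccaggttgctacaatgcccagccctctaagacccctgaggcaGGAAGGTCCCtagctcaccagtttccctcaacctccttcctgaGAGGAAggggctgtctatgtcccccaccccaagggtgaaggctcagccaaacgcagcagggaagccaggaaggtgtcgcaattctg
The shorter match, GAGGAA at 86 to 81 bases before the start, is the core of sites for PU.1, a factor that sets myeloid fate, and 23.3% of 32851 such windows in the table hold it. The other is an NF-κB motif on the opposite strand, at 129 to 120 bases, held by 7.25% of windows. The motifs did not overlap. TTCNNNGAA, which STAT factors bind, and TTGCNNAA, a C/EBP motif, were in 7.02% and 9.56% of windows and had 0 matches in this one. Of the 8 genes, 5 had a window in the table. *Csf2rb2* held 1 TTCNNNGAA and 1 GAGGAA, *Csf2ra* held 2 GAGGAA, *Csf2* held 1 TTGCNNAA and *Csf1* held 1 NF-κB motif. A match is a description of the letters and not a site shown to be bound.

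Values are log2 intensities normalised by RMA. A difference between groups is a difference of mean log2 values from limma, fitted over all 8 arrays, with the donor entering as a random effect, and adjusted p-values cover 45011 probe sets. A gene was called at an adjusted p under 0.05. The labelled cell type was borne out by its markers, as the median of 10 macrophage markers lay between 12.58 and 12.69 in each of the 4 donors. Both arrays of WT donor 1 stood apart, with a median of 8.81 over 14 fibroblast and stromal markers (13 of 14 were highest there), against 3.17 and 5.00 in the knockout donors and 4.22 in WT donor 2. T and NK cell markers (8) and mast cell and basophil markers (7) were under 6 in all donors, as were 6 of 7 dendritic cell markers. The other, *Fscn1*, an actin-bundling protein of mature dendritic cells, had a mean of 7.21 to 10.58 per donor and was highest in WT donor 1. *Mir155hg*, from which miR-155 is cut, was between 1.70 and 2.19 on the knockout arrays and between 2.01 and 4.02 on the WT arrays, and whether its probe set lies inside the deleted part is not given, so that it does not check the genotypes. In bulk RNA, fewer cells of a type and less RNA per cell cannot be told apart.

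**Figure D1:**
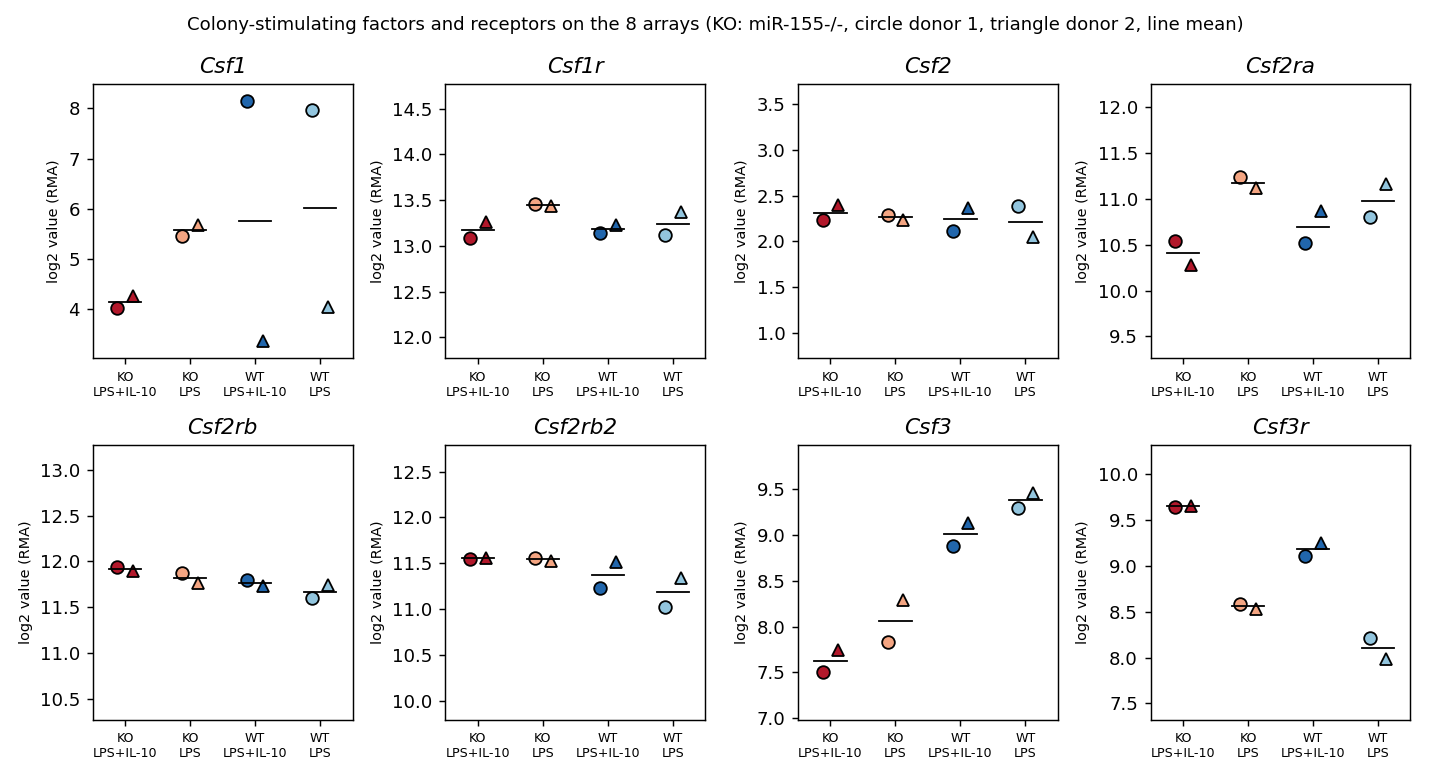
Log2 RMA value (y axis, spanning at least 3 units in each panel) of the 8 genes in the 4 groups (x axis, KO is miR-155-/-), with donor 1 as circles, donor 2 as triangles and the group mean as a line. *Csf3* and *Csf3r* separate all 4 groups, and *Csf1* is high on both arrays of WT donor 1, at 8.15 and 7.97.

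The calls among the 8 genes fell on G-CSF and its receptor. With IL-10, 1 of 8 was called higher (*Csf3r*) and 0 lower in *miR-155*-/- cells, where 1.26% of all probe sets were called higher and 1.42% lower. In WT cells, 0 of 8 were called, against 0.00889% of probe sets higher and 0.0222% lower, and 1 gene, *Csf3r*, was higher at an unadjusted p under 0.05, as were 4.69% of probe sets (4.58% lower). It also passed the selection rule of the methods, an unadjusted p under 0.05 and a log2 difference over 1 in size, as did 0.333% of probe sets upward and 0.355% downward. Between genotypes under LPS, 1 of 8 was called lower in *miR-155*-/- cells (*Csf3*) and 0 higher, against backgrounds of 0.513% and 0.951%. Between genotypes with IL-10, 0 of 8 were called, against 0.0378% of probe sets higher and 0.0333% lower. Here *Csf3r* was higher and *Csf3* lower at an unadjusted p under 0.05, where the background was 5.59% higher and 3.35% lower, and *Csf3* passed the selection rule, as did 0.553% of probe sets downward and 0.671% upward. The IL-10 effect differed between genotypes for 0 of 8 genes, also at an unadjusted p under 0.05, where 0% of probe sets were called higher and 0.0333% lower (5.43% and 5.01% at the unadjusted p). Over the 8 genes, the median log2 difference was −0.13 with IL-10 in *miR-155*-/- cells, −0.02 with IL-10 in WT cells and 0.17 between genotypes under LPS, beside −0.003, −0.003 and 0.03 over all 18183 genes.

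*Csf3r*, the G-CSF receptor, was higher with IL-10 in cells of every donor. It was at 9.65 and 9.65 in *miR-155*-/-(LPS + IL-10), against 8.59 and 8.53 in *miR-155*-/-(LPS). It was at 9.11 and 9.26 in WT(LPS + IL-10), against 8.22 and 7.99 in WT(LPS). All 4 IL-10 arrays lay above all 4 LPS arrays, and within each treatment both knockout arrays lay above both WT arrays. The IL-10 group lay above the LPS group without overlap for 24.5% of all probe sets in *miR-155*-/- cells and 16.1% in WT cells. The IL-10 difference in *miR-155*-/- cells was 1.09 (SE 0.12, a 2.13-fold rise, limma adjusted p = 0.00886). In WT cells it was 1.08 (SE 0.12, 2.11-fold), which missed the threshold at a limma adjusted p of 0.0624. The 2 effects differed by 0.01 (95% interval −0.40 to 0.43, limma adjusted p = 0.990). The mean of both effects, a comparison added after the data were examined, was 1.08 (SE 0.09, limma adjusted p = 0.00268), where 1.16% of probe sets were called higher and 1.42% lower, and it stayed called with each array left out (adjusted p 0.00897 to 0.0211). The knockout call on its own held without any 1 of the 4 WT arrays and was lost without any 1 of the 4 knockout arrays (limma adjusted p up to 0.0887), while the difference stayed between 1.06 and 1.12. Without both arrays of WT donor 1 the averaged effect was 1.18 (limma adjusted p = 0.0220).

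Between genotypes, *Csf3r* differed by 0.46 under LPS (SE 0.14, limma adjusted p = 0.212) and by 0.47 with IL-10 (SE 0.14, limma adjusted p = 0.397). The groups did not overlap in either comparison, as was so, in this direction, for 25.3% and 23.2% of all probe sets. From high to low the groups ran *miR-155*-/-(LPS + IL-10), WT(LPS + IL-10), *miR-155*-/-(LPS) and WT(LPS), and no neighbours overlapped.

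Because *Csf3r* is a neutrophil gene as well, neutrophil markers are given beside it. *S100a8*, a calcium-binding protein of neutrophils and activated macrophages, rose with IL-10 in *miR-155*-/- cells by 1.59 (SE 0.12, limma adjusted p = 0.00261), and the other 10 of the 11 measured markers were not called in that comparison. Between genotypes under LPS, 4 of 11 were called lower in *miR-155*-/- cells (*S100a8*, *S100a9*, *Mmp8* and *Mmp9*) and 0 higher, and with IL-10 2 of 11 were called lower (*S100a9* and *Mmp9*) and 0 higher. With 1 array left out the LPS calls held in 4, 4, 0 and 7 of 8 fits, and both calls with IL-10 in 2 of 8. On the linear scale the 11 signals summed to 12040 to 12690 for *miR-155*-/-(LPS + IL-10), 10440 to 10880 for *miR-155*-/-(LPS), 16970 to 18190 for WT(LPS + IL-10) and 15210 to 16230 for WT(LPS). The brightest marker of each donor, with a mean log2 value of 12.49 to 12.72, made up a large part of these sums. Of the 11 markers, 4 had a mean of at least 6 in each knockout donor and 5 in each WT donor. Their medians were 3.63 and 3.73 in the knockout donors and 5.65 and 5.03 in WT donors 1 and 2. *Elane*, *Mpo*, *Cxcr2*, *Ngp* and *Ltf*, which define neutrophils and their precursors, were between 1.46 and 3.32 on all arrays. The part of these markers in the *Csf3r* and *Csf3* differences was not tested.

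**Figure D2:**
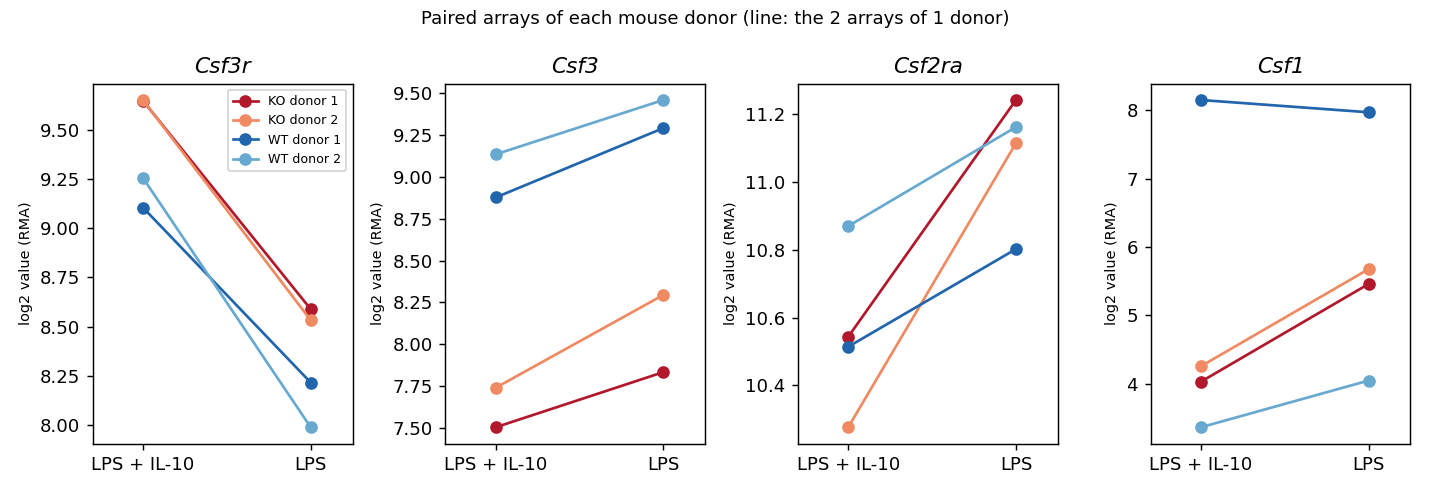
Log2 RMA value (y axis) of *Csf3r*, *Csf3*, *Csf2ra* and *Csf1* in LPS + IL-10 and LPS arrays (x axis), each line joining the 2 arrays of 1 mouse donor, with separate y ranges. *Csf3r* was higher with IL-10 in all 4 donors, and *Csf3* and *Csf2ra* were lower in all 4.

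*Csf3*, which encodes G-CSF, was lower in *miR-155*-/- cells, from male mice, than in WT cells, from female mice. It was at 7.83 and 8.29 in *miR-155*-/-(LPS), against 9.29 and 9.46 in WT(LPS). With IL-10 it was at 7.50 and 7.74 in *miR-155*-/-(LPS + IL-10), against 8.88 and 9.14 in WT(LPS + IL-10). All 4 knockout arrays were under all 4 WT arrays, and knockout lay below WT without overlap for 21.3% of all probe sets under LPS and 15.7% with IL-10. Under LPS the difference was −1.31 (SE 0.19, 0.403 of the WT level, limma adjusted p = 0.0270). With IL-10 it was −1.39 (SE 0.19, 0.383 of the WT level), which missed the threshold at a limma adjusted p of 0.0811. Averaged over both treatments, a comparison also added after the data were examined, it was −1.35 (SE 0.15, limma adjusted p = 0.0141), where 0.395% of probe sets were called lower and 0.771% higher. The LPS call held in 2 of 8 fits with an array left out, those without a WT(LPS + IL-10) array (limma adjusted p over all 8 was 0.0464 to 0.165). The averaged call held in 4 of 8 and was lost without WT(LPS) replicate 1, *miR-155*-/-(LPS) replicate 1 or either *miR-155*-/-(LPS + IL-10) array (limma adjusted p 0.0351 to 0.0736). Without both arrays of WT donor 1 the LPS difference was −1.40 (limma adjusted p = 0.109) and the averaged one −1.46 (limma adjusted p = 0.0322).

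IL-10 went with a smaller and uncalled difference in *Csf3*. Within the donors it was −0.33 and −0.56 in *miR-155*-/- cells and −0.41 and −0.33 in WT cells. By group this was −0.44 in *miR-155*-/- (SE 0.16, limma adjusted p = 0.228) and −0.37 in WT (SE 0.16, limma adjusted p = 0.549). *Csf3* and *Csf2ra* were the 2 of 8 genes that were lower with IL-10 in all 4 donors, which held for 11.1% of all probe sets, and *Csf3r* was the 1 that was higher in all 4, which held for 10.6%. The order of the groups for *Csf3* was WT(LPS), WT(LPS + IL-10), *miR-155*-/-(LPS) and *miR-155*-/-(LPS + IL-10), with no overlap between neighbours. The IL-10 group lay below the LPS group without overlap for 23.4% of all probe sets in *miR-155*-/- cells and 16.7% in WT cells.

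**Figure D3:**
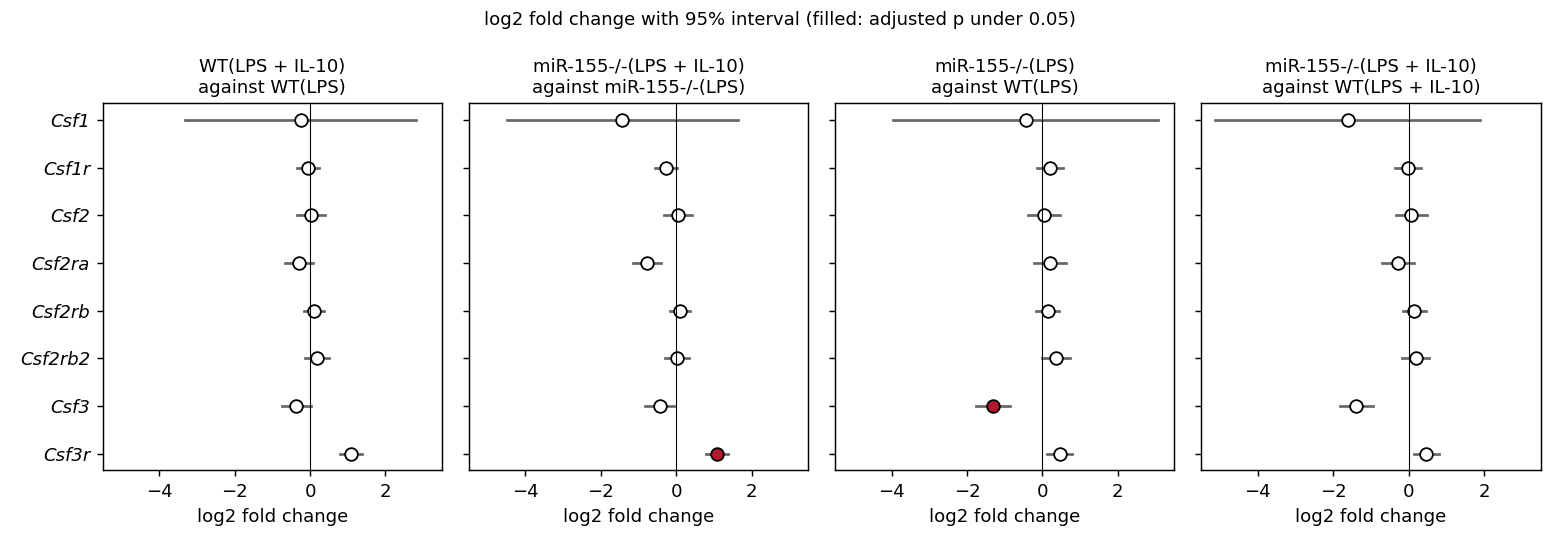
Log2 fold change (x axis) of the 8 genes (y axis) in 4 comparisons, with 95% intervals from limma, filled where the adjusted p is under 0.05. *Csf3r* with IL-10 in miR-155-/- cells (1.09) and *Csf3* in miR-155-/-(LPS) against WT(LPS) (−1.31) are filled, and *Csf1* has by far the widest intervals.

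*Csf1*, which encodes M-CSF, was high in 1 donor of 4. It was at 4.03 and 4.26 in *miR-155*-/-(LPS + IL-10), against 5.46 and 5.68 in *miR-155*-/-(LPS). It was at 8.15 and 3.36 in WT(LPS + IL-10), against 7.97 and 4.05 in WT(LPS), donor 1 first. The WT groups therefore spanned all the knockout values, and the other 3 *Csf1* probe sets were also highest in WT donor 1, at 6.11 to 6.42. The stromal markers were high on the same arrays. Their summed linear signal was 169.2 to 595.9 for *miR-155*-/-(LPS + IL-10), 245.3 to 764 for *miR-155*-/-(LPS), 426.9 to 15930 for WT(LPS + IL-10) and 401 to 15820 for WT(LPS). *Col1a1*, a collagen chain, was at 11.86 and 11.63 in WT donor 1 and at most 8.00 elsewhere, whereas *Thy1*, another marker of fibroblasts, was between 3.17 and 3.82 on all arrays. *Lum*, a matrix proteoglycan and the 1 marker not highest in WT donor 1, was called higher in *miR-155*-/-(LPS), at 4.91 and 5.63, against 2.63 and 2.77 in WT(LPS). *Dcn*, a related proteoglycan, was at 4.73 and 4.97 in *miR-155*-/-(LPS + IL-10), against 6.13 and 6.04 in *miR-155*-/-(LPS) (limma adjusted p = 0.262). *Lum* was at 3.76 and 4.52 in *miR-155*-/-(LPS + IL-10), against 4.91 and 5.63 in *miR-155*-/-(LPS) (limma adjusted p = 0.0665). Both were lower with IL-10 in both knockout donors, and neither was called. Of all 14 stromal markers, 0 were called in this comparison. At an unadjusted limma p under 0.05, 2 were lower and 0 higher, and the list's median difference was −0.19. The part of the stromal markers in the *Csf1* level was not tested.

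No *Csf1* comparison was called with all arrays, where the difference between genotypes under LPS was −0.44 (SE 1.49, limma adjusted p = 0.934). Without both arrays of WT donor 1 it turned to 1.52 (limma adjusted p = 0.0504). The IL-10 difference within a donor was −1.43 and −1.42 in the knockout donors and 0.18 and −0.68 in WT donors 1 and 2. The knockout difference of −1.43 (SE 1.30) had a limma adjusted p of 0.657 with the donor as a random block, 0.0216 with the donor as a fixed effect and 0.0203 without WT donor 1. With the random block, the other *Csf1* probe sets gave smaller knockout differences of −0.35, −1.21 and −0.58 (limma adjusted p = 0.855, 0.429 and 0.793). The difference between genotypes in the IL-10 effect on the brightest probe set was −1.17 (95% interval −5.51 to 3.16, limma adjusted p = 0.858).

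**Figure D4:**
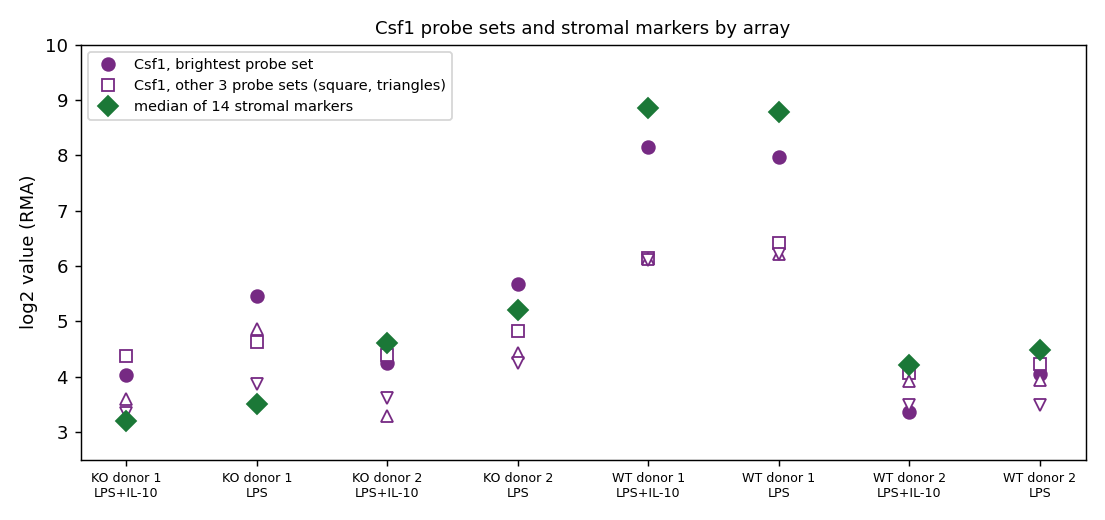
Log2 RMA value (y axis) of the 4 *Csf1* probe sets and the median of the 14 markers of fibroblasts and stroma, array by array (x axis, by donor and treatment, KO is miR-155-/-). Both arrays of WT donor 1 are highest for all of them, with marker medians of 8.85 and 8.78.

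*Csf1r*, the receptor kinase of M-CSF, was among the brightest genes and nearly level. Its values were 13.09 and 13.26 for *miR-155*-/-(LPS + IL-10), 13.46 and 13.44 for *miR-155*-/-(LPS), 13.14 and 13.23 for WT(LPS + IL-10) and 13.12 and 13.37 for WT(LPS). Only the *miR-155*-/-(LPS) arrays stood clear of the other 3 groups, which overlapped each other. Over all probe sets, *miR-155*-/-(LPS) lay above WT(LPS) without overlap for 25.3%, and above *miR-155*-/-(LPS + IL-10) for 23.4%. With IL-10 the difference was −0.27 in *miR-155*-/- cells (95% interval −0.57 to 0.02, limma adjusted p = 0.323) and −0.06 in WT cells (−0.35 to 0.24, limma adjusted p = 0.922). The other 2 probe sets gave, in knockout cells, −0.49 and −0.27 (limma adjusted p = 0.117 and 0.281). Between genotypes under LPS the brightest probe set differed by 0.20 (95% interval −0.13 to 0.54, limma adjusted p = 0.60). There the other 2 gave 0.40 and 0.19 (limma adjusted p = 0.308 and 0.574).

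*Csf2*, which encodes GM-CSF, was at the level of transcripts that macrophages do not make. Its 8 values lay between 2.05 and 2.39, where the median of 14 genes of other tissues was 2.75. No difference was called, and the values are too dim to show whether *Csf2* changed.

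*Csf2ra*, the alpha chain of the GM-CSF receptor, was lower with IL-10 in all 4 donors and just missed the threshold in knockout cells. It was at 10.54 and 10.28 in *miR-155*-/-(LPS + IL-10), against 11.24 and 11.12 in *miR-155*-/-(LPS). It was at 10.51 and 10.87 in WT(LPS + IL-10), against 10.80 and 11.16 in WT(LPS). The knockout groups did not overlap, as was so, in this direction, for 23.4% of probe sets, while the WT groups did overlap. The difference was −0.77 in *miR-155*-/- cells (SE 0.16, 0.587 of the LPS level, limma adjusted p = 0.0590) and −0.29 in WT cells (SE 0.16, limma adjusted p = 0.605). The effects differed by −0.48 (95% interval −1.01 to 0.05, limma adjusted p = 0.512). The second *Csf2ra* probe set gave −0.96 in *miR-155*-/- cells (SE 0.18) and was called (limma adjusted p = 0.0419). With the donor as a fixed effect the first passed as well (limma adjusted p = 0.0356). For the difference between the effects, with the random block, the second gave −0.59 (95% interval −1.18 to −0.0004). Its limma p was 0.0499 unadjusted and 0.479 adjusted. The dendritic cell marker *Fscn1* was at 5.73 and 6.83 in *miR-155*-/-(LPS + IL-10), against 9.67 and 9.63 in *miR-155*-/-(LPS), and was not called (limma adjusted p = 0.166). The 7 dendritic markers summed to 118.7 to 177.8 for *miR-155*-/-(LPS + IL-10), 855.2 to 886.7 for *miR-155*-/-(LPS), 178 to 1760 for WT(LPS + IL-10) and 275.1 to 1454 for WT(LPS), on the linear scale. *Fscn1* made up most of the *miR-155*-/-(LPS) sums, and the other markers had donor means under 6. The median of the 7 was 2.83 and 2.77 in *miR-155*-/-(LPS + IL-10), against 2.99 and 3.07 in *miR-155*-/-(LPS). The part of the dendritic markers in the *Csf2ra* difference was not tested.

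The beta chains stayed within narrow limits. *Csf2rb* had 11.94 and 11.89 for *miR-155*-/-(LPS + IL-10), 11.87 and 11.76 for *miR-155*-/-(LPS), 11.80 and 11.73 for WT(LPS + IL-10) and 11.60 and 11.74 for WT(LPS). *Csf2rb2* had 11.55 and 11.56 for *miR-155*-/-(LPS + IL-10), 11.56 and 11.53 for *miR-155*-/-(LPS), 11.23 and 11.51 for WT(LPS + IL-10) and 11.02 and 11.34 for WT(LPS). Both knockout groups of *Csf2rb2* lay above both WT groups, as was so for 25.3% of probe sets under LPS and 23.2% with IL-10. The differences between genotypes under LPS were 0.15 for *Csf2rb* (95% interval −0.16 to 0.45, limma adjusted p = 0.684) and 0.36 for *Csf2rb2* (−0.003 to 0.73, limma adjusted p = 0.367). A second *Csf2rb* probe set gave 0.43 with IL-10 in knockout cells and was not called (SE 0.13, limma adjusted p = 0.145). The 2 genes are near-identical neighbours on chromosome 15, at 78325800 to 78351001 (*Csf2rb*) and 78282507 to 78305721 (*Csf2rb2*) in GRCm38.p6, and a probe set annotated to both, between 6.51 and 7.08, was not used. How far each probe set reads the other gene is uncertain.

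The other ligands and receptors of these families had no calls. Of 8 (*Il34*, *Il3*, *Il5*, *Il3ra*, *Il5ra*, *Flt3*, *Kit* and *Kitl*), 0 were called in any comparison, and 0 were past an unadjusted p under 0.05. *Il34*, the other ligand of *Csf1r*, was between 1.53 and 2.02, and *Il3ra*, the IL-3 receptor alpha chain, was between 7.01 and 7.50.

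Downstream, calls were few in number. Their share was larger in most lists than over the whole array, but the features were unlike. List genes were read by their brightest probe set, while the share of the array also counts dim probe sets. The lists were chosen with earlier results of these data known, so that their shares carry no test. Over the whole array, 0.951% of probe sets were called higher and 0.513% lower in *miR-155*-/- cells under LPS. With IL-10 in *miR-155*-/- cells, 1.26% were called higher and 1.42% lower. Refitted on the 15434 probe sets with a mean of at least 6, 860 were called higher and 663 lower in *miR-155*-/- cells under LPS. With IL-10 in *miR-155*-/- cells, that fit called 1638 higher and 1545 lower. The list shares can therefore not be read as an excess. Of 24 measured genes that relay the signal of these receptors, 1 was called higher in *miR-155*-/- cells under LPS, and 0 were higher and 2 lower with IL-10 in *miR-155*-/- cells. *Jak2*, the kinase that the GM-CSF receptor uses, was at 11.70 and 11.63 in *miR-155*-/-(LPS), against 10.26 and 10.54 in WT(LPS), a difference of 1.27 (SE 0.17, limma adjusted p = 0.0231). With IL-10 in *miR-155*-/- cells it was at 10.76 and 10.85, a difference of −0.86 (SE 0.15, limma adjusted p = 0.0355). *Tyk2*, a related kinase, fell by 0.80 in that comparison (SE 0.15, limma adjusted p = 0.0477). Of 16 feedback genes and STAT5 targets, 1 was called lower with IL-10 in *miR-155*-/- cells, *Pim2*, a survival kinase, which fell by 1.44 (SE 0.22, limma adjusted p = 0.0251), and 0 were called between genotypes under LPS.

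Genes associated with GM-CSF-driven macrophages included inflammatory cytokines. With IL-10 in *miR-155*-/- cells, 3 of 14 were called lower and 0 higher. They were *Il6*, which fell by 5.54 (SE 0.87, limma adjusted p = 0.0257), *Tnf*, which fell by 1.04 (SE 0.16, limma adjusted p = 0.0267), and *Ptgs2*, the inducible cyclooxygenase, which fell by 1.18 (SE 0.22, limma adjusted p = 0.0423). The list's median was −0.60, where that of all genes was −0.003. The other 11 genes were not called. Among them, *Ccl22*, *Irf4* and *Chil3* were dim, at most 3.37, 3.12 and 2.28 on any array. The part of GM-CSF in these differences was not tested. Between genotypes under LPS, *Ptgs2* alone of the 14 was called, higher in *miR-155*-/- cells by 1.50 (SE 0.25, limma adjusted p = 0.0421).

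Of 16 genes associated with M-CSF-driven macrophages, 1 was called higher and 2 lower with IL-10 in *miR-155*-/- cells. *Mrc1*, the mannose receptor, was at 12.07 and 12.22 in *miR-155*-/-(LPS + IL-10), against at most 9.92 in *miR-155*-/-(LPS), a rise of 2.68 (SE 0.24, limma adjusted p = 0.00441). *Egr1*, an early response factor, fell by 2.51 (SE 0.20, limma adjusted p = 0.00278), and *Cx3cr1*, the fractalkine receptor, fell by 1.85 (SE 0.30, limma adjusted p = 0.0302). Under LPS, *Cx3cr1* was higher in *miR-155*-/- than in WT cells by 2.70 (SE 0.35, limma adjusted p = 0.0204) and *Mrc1* differed by −2.71 (SE 0.28, limma adjusted p = 0.0101). Both comparisons use the *miR-155*-/-(LPS) arrays.

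Of 20 measured regulators of *Csf2* and *Csf3* transcription and mRNA decay, 1 was called higher and 1 lower in *miR-155*-/- cells under LPS. *Rel*, an NF-κB subunit, was at 7.66 and 7.65 in *miR-155*-/-(LPS), against 6.20 and 6.69 in WT(LPS), a difference of 1.21 (SE 0.19, limma adjusted p = 0.0361). *Zfp36l1*, which promotes decay of AU-rich mRNAs, was at 10.07 and 10.27 in *miR-155*-/-(LPS), against 11.41 and 11.25 in WT(LPS), a difference of −1.16 (SE 0.15, limma adjusted p = 0.0188). With IL-10 in *miR-155*-/- cells, *Rel* fell by 1.20 (SE 0.16, limma adjusted p = 0.0160) and *Zfp36l1* rose by 0.71 (SE 0.13, limma adjusted p = 0.0385). In WT(LPS + IL-10) against WT(LPS), 0 genes of these 5 lists were called, where only 0.00889% of all probe sets were called higher and 0.0222% lower. This comparison had, at an unadjusted p under 0.05, 4 genes higher and 0 lower for signal relay, 1 and 3 for feedback and STAT5 targets, 0 and 3 for GM-CSF-associated genes, 0 and 3 for M-CSF-associated genes and 5 and 2 for the regulators. For 0 genes of these lists was the IL-10 effect called as unlike in the genotypes. With 1 array left out, *Egr1* and *Mrc1* kept their IL-10 calls in 8 of 8 fits, and the other calls of these lists were lost in 2 to 8 of them.

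**Figure D5:**
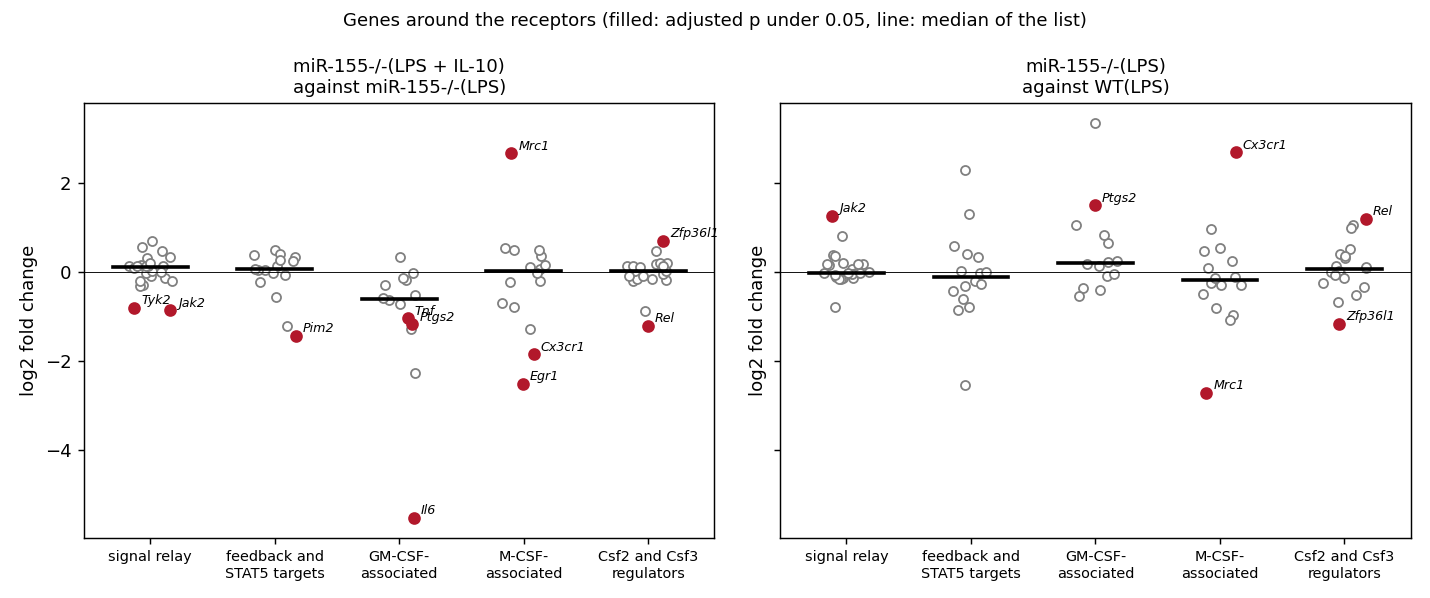
Log2 fold change (y axis) of the genes of 5 lists around the receptors (x axis), with the IL-10 effect in miR-155-/- cells on the left and the genotype difference under LPS on the right, filled and named at an adjusted p under 0.05, with list medians as lines. Filled genes are few in each list, 1 to 3 on the left and 0 to 2 on the right.

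*Csf3* and *Csf3r* were the members bright and variable enough to look for genes of like pattern, among 1444 genes with a mean of at least 6 and a range of at least 1. Over the 8 arrays, which share donors and group differences, those closest to *Csf3* were *Col18a1* (Pearson r = 0.987), *Slc39a10* (0.987) and *Mmp9* (0.986). Closest to *Csf3r* were *Zfp618* (0.969), *Ndrg1* (0.965) and *Saa1* (0.965). Between *Csf3* and *Csf3r* themselves r was −0.63. These values describe 4 groups of 2 arrays and carry no test.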

How the data were processed

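RNA of BMDM from 4 mouse donors in 4 groups of 2 was sent by the authors to a service laboratory for NuGEN amplification and Affymetrix mouse expression arrays. Deposited were log2 values, which the authors had computed with RMA (affy), that is background-corrected, quantile-normalised and summarised per probe set, and the sources used here give no versions. The methods used limma with the donor as block. Here, of 45101 probe sets, 64 controls and 26 Y-linked or *Xist* probe sets were left out, 34922 of the rest had 1 symbol, 929 several and 9160 none, and 45011 went into limma 3.58.1 under R 4.3.3 (group means, donor as random block by duplicateCorrelation, consensus correlation 0.24, eBayes, Benjamini-Hochberg). The fit was tested on simulated data. A donor is a genotype with a replicate number of the labels, and the deviations of paired arrays from their group means correlated at 0.230 in knockout and 0.754 in WT donors. Replicates are separate mice, and the number of arrays limits the precision.

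The 8 genes and the 13 gene lists were chosen with earlier results of these data known. Named were all 8 genes, up to 6 called genes per list by smallest adjusted p, and the 3 genes closest to each bright and variable member. The averages over both genotypes and over both treatments were added after the data were examined. Alternatives were no block, the donor as a fixed effect, only the arrays compared, probe sets with a mean of at least 6, an intensity trend, arrays centred on their medians, means over probe sets, selection by unadjusted p (0.05) and log2 difference (1), each array left out, and WT donor 1 left out. Plots used Python 3.11.15 and matplotlib 3.10.9.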

Additional observations from a re-analysis of the deposited data

How the results depend on the processing

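The number of the 8 genes called changed with the test, and some differences, above all those of *Csf1*, moved as well. With IL-10 in *miR-155*-/- cells, 1 gene was called, against 3 with the donor as a fixed effect (*Csf1*, *Csf2ra* and *Csf3r*) and 2 with only the arrays compared, with a filter on mean level (at least 6), with an intensity trend, with means over probe sets and without WT donor 1. In WT cells with IL-10, 0 were called, against 1 (*Csf3r*) with the filter at 6, the trend, centred arrays, means over probe sets and the selection rule of the methods. Between genotypes under LPS, 1 was called, against 0 with only the arrays compared and 0 without WT donor 1. Between genotypes with IL-10, 0 were called, against 1 (*Csf3*) with the filter, the trend and the selection rule. For the averaged IL-10 effect, 1 became 3 with the fixed donor effect and with the filter, and 2 with the trend, means over probe sets and without WT donor 1. For the averaged genotype difference, 1 became 2 with the filter, the trend and without WT donor 1. With 1 array left out, 0 to 1 were called with IL-10 in *miR-155*-/- cells, in *miR-155*-/-(LPS) against WT(LPS) and for the averaged genotype difference.

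Without the replicate block, no call of the 8 genes changed (*Csf3r* with IL-10 in *miR-155*-/- cells was 1.09, adjusted p = 0.0199, and *Csf3* in *miR-155*-/-(LPS) against WT(LPS) was −1.31, adjusted p = 0.0356), while the probe sets called with IL-10 in *miR-155*-/- cells were 219 higher and 273 lower, against 569 and 638 with it. Of the named list genes, *Mmp8* between genotypes under LPS, and *Jak2*, *Tyk2*, *Pim2*, *Il6*, *Tnf*, *Ptgs2*, *Cx3cr1*, *Rel* and *Zfp36l1* with IL-10 in *miR-155*-/- cells, were not called without it. In the fits on the arrays compared alone and without WT donor 1, the donor correlation could not be estimated and no block was used. The filter at 6 left out *Csf1* and *Csf2*.

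Every sign that turned was of a difference not called with all arrays. Without WT donor 1, *Csf1* was 1.52 in *miR-155*-/-(LPS) against WT(LPS), 0.78 in *miR-155*-/-(LPS + IL-10) against WT(LPS + IL-10) and 1.15 averaged (adjusted p = 0.0318). Also without it, *Csf2rb* was −0.011 with IL-10 in WT cells, *Csf2* was −0.049 between the IL-10 groups and −0.26 for the genotype difference of the IL-10 effect, and *Csf3r* was −0.18 for that same quantity. With centred arrays, *Csf1r* was 0.024 between the IL-10 groups. The cause was not tested. With 1 array left out, the averaged IL-10 effect on *Csf1* ran between −1.85 and 0.17, its genotype difference between −3.19 and 0.84, the difference between genotypes with IL-10 between −3.63 and 0.40 and under LPS between −1.90 and 1.02, and the IL-10 effect in WT between −2.27 and 1.76. *Csf2*, near background, ran between −0.059 and 0.13 for the averaged IL-10 effect, −0.17 and 0.22 for its genotype difference, −0.034 and 0.16 for the averaged genotype difference, −0.039 and 0.14 for IL-10 in knockout cells, −0.17 and 0.22 for IL-10 in WT cells, −0.081 and 0.23 between genotypes with IL-10 and −0.14 and 0.24 under LPS. *Csf1r* ran between −0.17 and 0.064 for IL-10 in WT and −0.11 and 0.075 between genotypes with IL-10, *Csf2ra* between −0.11 and 0.029 for the averaged genotype difference, and *Csf2rb2* between −0.002 and 0.027 for IL-10 in knockout cells. The genotype difference of the IL-10 effect ran between −0.27 and 0.12 for *Csf3*, −0.070 and 0.083 for *Csf2rb* and −0.12 and 0.14 for *Csf3r*.

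Over all probe sets the counts called moved far more. With IL-10 in *miR-155*-/- cells they were 569 higher and 638 lower, and between 36 and 76 (without *miR-155*-/-(LPS) replicate 1) and 1638 and 1545 (with the filter). Between genotypes under LPS they were 428 higher and 231 lower, and between 38 and 15 (without the same array) and 940 and 629 (with the trend). The other planned comparisons went, higher and lower, between 0 and 0 and 149 and 178 for IL-10 in WT (4 and 10 as reported), between 1 and 1 and 204 and 91 for genotypes with IL-10 (17 and 15), and between 0 and 1 and 34 and 71 for the difference of effects (0 and 15). The averaged IL-10 effect had 523 and 641, and between 127 and 162 and 1323 and 1439, and the averaged genotype difference 347 and 178, and between 52 and 22 and 855 and 503.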
